A study of Xenopus laevis with 8 samples.

Results

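The genes of the Wnt pathway were examined in the hindlimb bud of the frog Xenopus laevis: the ligands, their receptors and co-receptors, the secreted inhibitors, the proteins that carry the signal inside the cell and the nuclear factors at its end. Members were the probe sets whose gene symbol, in the annotation of the array, belongs to the wnt, fzd, sfrp, dkk, axin, dvl, tcf7 or tle family, or names 1 of the further pathway genes such as ctnnb1, frzb, wif1, ror2 and vangl1. It gave 72 of 15491 probe sets, which were averaged to 59 genes. The same choice would have taken in R-spondins and ror1, but no probe set analysed here carried their symbols. The genome of X. laevis arose by hybridization of a pair of species, and a symbol ends in .L or .S according to whether that gene copy lies on a long or a short chromosome. A pair of probe sets carries the symbols of both copies, 1 for ctnnb1 and 1 for lef1, and each was kept as an entry of its own.

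Wnt ligands are secreted lipid-bearing proteins that bind Frizzled receptors. In the canonical branch, Frizzled and an LRP co-receptor stop the destruction of beta-catenin, which then enters the nucleus and works with the TCF and LEF factors. In the planar polarity branch, Frizzled, ROR2, Vangl and Dishevelled orient cells and their movements without beta-catenin. In vertebrate limb buds, canonical ligands of the ectoderm help to maintain the apical ridge and outgrowth, Wnt5a of the distal mesenchyme acts mainly through ROR2 and polarity, and secreted inhibitors such as Frzb accompany the condensing cartilage.

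Tadpoles at stage 52 were kept for 24 h in water with 1 μg/ml cyclopamine, which blocks Hedgehog signaling at Smoothened, or with its solvent ethanol alone. The labels give no strain, allele or sex for the animals. Each of the 8 arrays, 4 for ethanol and 4 for cyclopamine, received 3 μg of RNA from a pool of 18 to 22 whole hindlimb buds, so that values of single animals and of single tissues of the bud were not measured. Arrays 1 and 2 of each group came from clutch A and arrays 3 and 4 from clutch B. Arrays of the same number share clutch and group in the labels. They were taken as the study's pairs, which were exposed and extracted together.

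Values are log2 intensities after quantile normalization. A gene is called above the floor on an array where its value exceeded 5.45, which corresponds to an intensity of 43.7, the 20th percentile of all values. This is a floor of measurement and not proof of expression, since 3 control probe sets for a bacterial trp gene reached 56.8 as deposited. The medians of the 8 arrays as deposited ranged from 191.6 to 221, and markers of limb mesenchyme were above the floor on all 8 arrays in 11 of 12 genes. Markers of the epidermis were so in 7 of 8 genes, of cartilage in 3 of 4, of endothelium in 4 of 4, of blood in 4 of 7, of muscle in 8 of 13 and of nerve and glia in 0 of 7. RNA of skin, skeleton, vessels, blood and muscle was thus measured together, and in such bulk RNA fewer cells of a type cannot be told apart from less RNA per cell. Levels of different genes are not ranked, because probe sets differ in their response.

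Of the 59 members, 40 were above the floor on all 8 arrays, 15 on some and 4 on none. The share of 67.8% on all arrays stood beside 71.2% of all 13718 genes and unnamed probe sets. All 9 entries for nuclear factors were above the floor throughout, as were 8 of 10 secreted inhibitors, 7 of 10 cytoplasmic transducers and 8 of 12 frizzled and co-receptor genes. The ligands were lowest in this respect, with 5 of 14.

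The 5 ligands above the floor on all arrays were wnt3a.S, wnt5a.S, wnt5a-a, wnt7b.L and wnt11.S. wnt5a-a is an older symbol in the array's annotation, kept as it stands and counted with wnt5a. wnt3a encodes a canonical ligand known from the apical ridge, and its .S copy read 7.71, 8.18, 8.85 and 8.88 on ethanol arrays 1 to 4 and 8.15, 9.46, 9.07 and 7.41 on cyclopamine arrays 1 to 4. wnt7b encodes a ligand of the limb ectoderm, and wnt7b.L read 9.19, 9.88, 10.11 and 10.65 in ethanol and 9.63, 10.50, 10.22 and 9.06 after cyclopamine. In both genes cyclopamine array 4 was the lowest of all 8 arrays, while the ranges of the groups overlapped over most of their length.

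The mesenchymal ligand wnt5a was steadier. wnt5a-a read 8.90, 8.56, 9.11 and 8.74 in ethanol and 9.03, 8.41, 8.80 and 8.67 after cyclopamine. wnt5a.S read 7.51, 6.94, 7.68 and 7.86 in ethanol and 7.98, 7.41, 7.96 and 7.90 after cyclopamine. In both, array 2 was the lowest of its group. wnt11.S, a ligand of cell movement and polarity, read 7.90, 7.48, 8.09 and 7.32 in ethanol and 7.82, 7.26, 7.99 and 8.31 after cyclopamine.

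A further 6 ligands were above the floor on some arrays only. wnt4.L, known from joints and kidney in other vertebrates, was above it on 7 arrays, with its highest values of 6.73 and 6.41 on array 4 of each group. wnt5b.S was above it on 6 arrays, 4 of them ethanol, with 6.04, 6.12, 6.46 and 6.37 in ethanol and 5.48, 5.45, 5.45 and 6.73 after cyclopamine. Both ends of the range of wnt5b.S therefore lay in the cyclopamine group.

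wnt11b.L, the ligand long studied in the early Xenopus embryo, was above the floor on 3 ethanol arrays and 1 cyclopamine array. It read 6.37, 5.45, 6.18 and 5.86 in ethanol and 5.90, 5.45, 5.45 and 5.45 after cyclopamine. wnt2b-b, another older symbol, was above the floor on 5 arrays, wnt6.S on 2 and wnt8a.L on 2, with highest values of 5.99, 5.70 and 5.94. The values of wnt2b-b and wnt6.S are means of 2 probe sets. Of those of wnt2b-b, 1 lay at the floor on all 8 arrays and the other reached 6.53. Each probe set of wnt6.S was above the floor on 1 array only, 1 on ethanol array 2 and the other on cyclopamine array 2. wnt1.L, wnt2b.L and wnt8b.S never exceeded the floor, and neither did vangl2.L among the receptors. With the floor at the 10th percentile, 8 ligands were above it on all arrays, wnt2b-b, wnt4.L and wnt6.S being added to the 5.

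**Figure D1:**
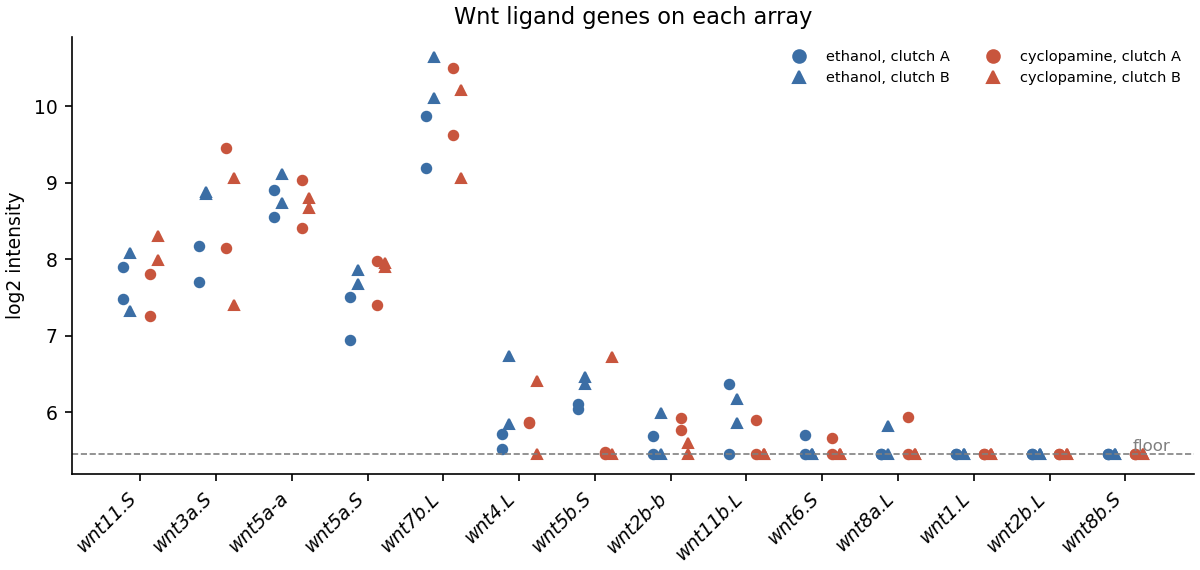
Log2 intensity of each of the 14 Wnt ligand genes (horizontal axis) on each of the 8 arrays. Circles mark clutch A and triangles clutch B, blue marks ethanol and red cyclopamine, and the dashed line is the floor at 5.45. 5 genes stand above the floor on all arrays, wnt3a.S and wnt7b.L with the widest spread among them, and wnt1.L, wnt2b.L and wnt8b.S lie on it throughout. Heights of different genes cannot be compared.

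The first comparison asked whether the level of Wnt pathway RNA differed after 24 h of cyclopamine. Whether Hedgehog signaling was blocked in these buds was not examined here. No member passed the test: 0 of the 55 that could be tested had an adjusted p under 0.05 (limma, Benjamini-Hochberg over all 12380 genes and unnamed probe sets tested), beside 0.0162% of all tested. At an unadjusted p under 0.05, limma called 0 members beside 6.28% of all tested. The lowest adjusted p among the members was 0.824. With the pair number as a block, 3 members, or 5.45%, had an unadjusted p under 0.05 beside 8.95% of all tested, and none of these passed after adjustment. The median difference of the 55 members, cyclopamine minus ethanol, was 0.04 on the log2 scale, with 34 above 0 and 21 below. The median of all tested was 0.0005, with 6201 above 0 and 6179 below.

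For the 40 members above the floor on all arrays, the median width of the 95% interval to each side was 0.50 on the log2 scale, and the widest was 1.08. In 32 of the 40, the interval lay between -1 and 1, so that a doubling or halving fell outside it, which is 80% beside 90.2% of the 9765 genes and unnamed probe sets above the floor throughout. In 37 of the 40, the difference between the group means was smaller than the larger of the standard deviations within the groups, or 92.5% beside 82.9%. The 3 others were dkk1.S, fzd4.S and tle5.L. All 4 pairs had the same sign in 4 of the 40, or 10% beside 18.9%.

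**Figure D2:**
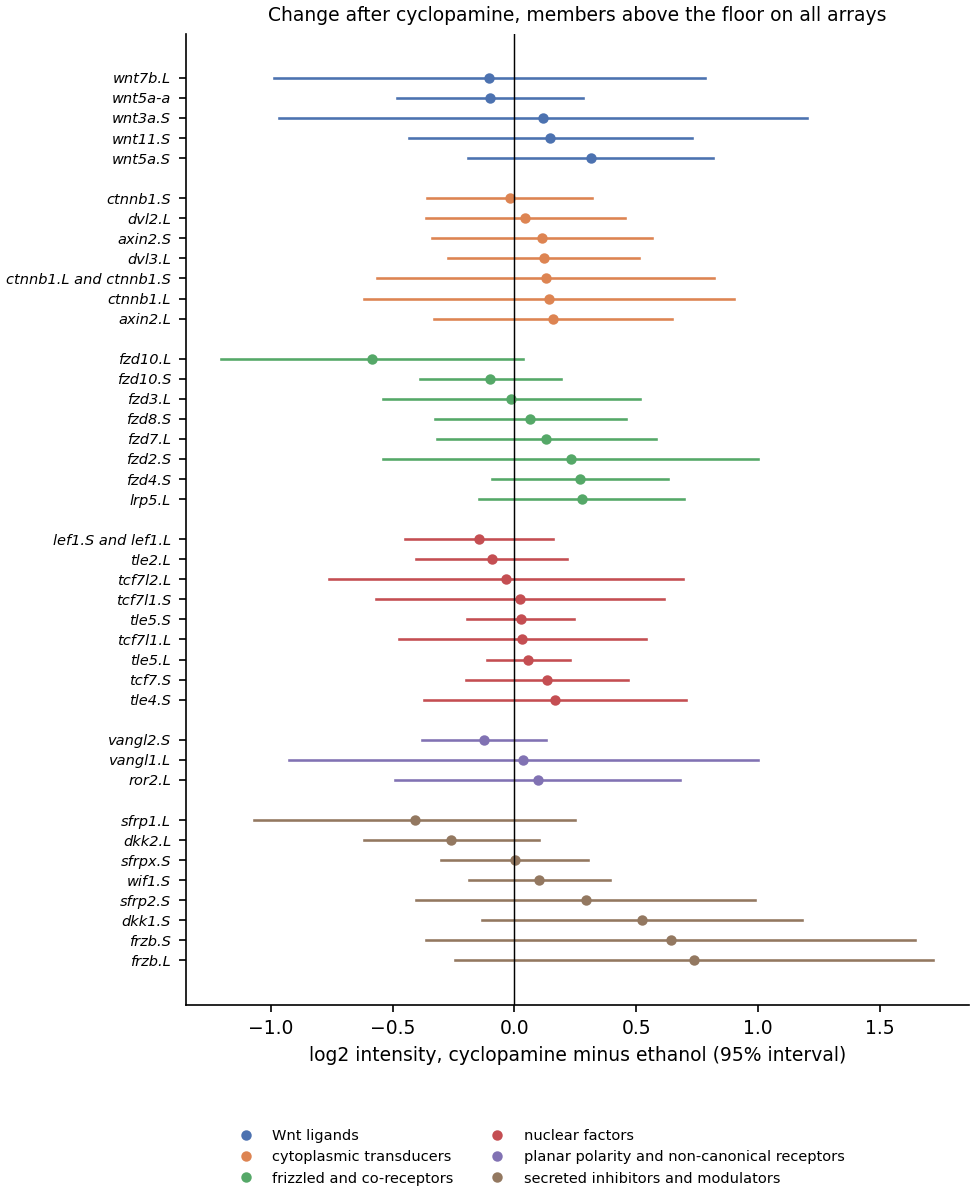
Difference in log2 intensity, cyclopamine minus ethanol, of the 40 members above the floor on all 8 arrays. Points are differences of the means of 4 arrays, bars are 95% intervals from limma, and colors mark the role of the gene. All 40 bars cross 0, the points run from -0.58 for fzd10.L to 0.74 for frzb.L, and the bars of tle5.L and tle5.S are the shortest.

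Among the receptors, fzd10.L, a Frizzled receptor, was the only member whose groups did not overlap, which is 1.82% of the 55 beside 3.51% of all tested. It read 6.998, 6.91, 6.99 and 6.83 in ethanol and 6.58, 6.78, 5.46 and 6.58 after cyclopamine. The 4 ethanol arrays stood close together, and cyclopamine array 3 was near the floor. The means were 6.93 ± 0.08 in ethanol and 6.35 ± 0.60 after cyclopamine (SD, n = 4 arrays each), a difference of -0.58 with a standard error of 0.27 (adjusted p = 0.824, limma). The 4 pairs all pointed the same way, by -0.42, -0.14, -1.53 and -0.26. Without cyclopamine array 3 the difference was -0.29.

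The other copy, fzd10.S, differed by -0.10 with a standard error of 0.13 in the mean of its 2 probe sets. The brighter of them differed by -0.38, and the other, above the floor on 3 arrays, by 0.18. fzd4.S, a receptor best known from blood vessels, read 6.27, 5.91, 6.03 and 5.80 in ethanol and 6.41, 5.91, 6.27 and 6.48 after cyclopamine, a difference of 0.27 with a standard error of 0.16. lrp5.L, a canonical co-receptor, read 7.96, 7.75, 8.31 and 8.17 in ethanol and 8.26, 8.04, 8.24 and 8.76 after cyclopamine, a difference of 0.28 with a standard error of 0.18. The groups overlapped in both. Without cyclopamine array 4, lrp5.L differed by 0.13, and with the floor at the 30th percentile fzd4.S differed by 0.09. lrp6.L, the other canonical co-receptor, was above the floor on 7 arrays and differed by 0.20 with a standard error of 0.15. This is the mean of a probe set that differed by 0.40 and another that lay at the floor on all 8 arrays.

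fzd2.S, a receptor for both branches, differed by 0.23. fzd8.S differed by 0.07 in the mean of 2 probe sets, by 0.14 in the dimmer and by -0.0075 in the brighter. fzd7.L, measured by 5 probe sets, differed by 0.13 in their mean and by -0.16 in the brightest of them, so that the direction of both genes depended on the probe set. fzd1.L was above the floor on 4 arrays and differed by -0.11, and fzd5.S and fzd8.L on 1 each.

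The secreted inhibitors held both the largest positive differences and several of the largest negative ones. Frzb binds Wnt ligands outside the cell and marks developing cartilage. frzb.L read 9.46, 8.60, 8.85 and 8.30 in ethanol and 9.56, 8.64, 9.29 and 10.68 after cyclopamine. Array 4 was the lowest of the ethanol group and the highest of the cyclopamine group, and the pairs differed by 0.10, 0.04, 0.44 and 2.37. The difference of the means was 0.74 with a standard error of 0.43 (adjusted p = 0.882, limma), and without cyclopamine array 4 it was 0.36.

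frzb.S showed the same array. It read 8.45, 7.55, 7.52 and 7.04 in ethanol and 7.87, 7.88, 7.88 and 9.50 after cyclopamine, a difference of 0.64 with a standard error of 0.44 that became 0.24 without cyclopamine array 4. In clutch A alone, frzb.L differed by 0.07 and frzb.S by -0.13, and in clutch B alone both differed by 1.41. The mean of the cartilage markers was also highest on cyclopamine array 4, at 9.63 beside 8.67 to 8.97 on the other cyclopamine arrays and 8.56 to 9.03 in ethanol. The collagen gene col9a1.L read 10.04 there and 7.71 to 8.78 on the other 7 arrays. Cartilage was not alone in this: the means of the limb mesenchyme, endothelium and muscle markers were likewise highest on cyclopamine array 4. In ethanol, both frzb copies were highest on array 1 and the cartilage mean on array 3. Neither copy shared the full array order of the cartilage mean. The part of the cartilage, mesenchymal, endothelial or muscle content of that pool in the values of frzb was not tested.

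dkk1 encodes a secreted blocker of the LRP co-receptors that canonical signaling itself induces in many vertebrate tissues. dkk1.S read 6.85, 6.70, 7.62 and 7.71 in ethanol and 7.89, 7.26, 8.17 and 7.66 after cyclopamine, higher in 3 of 4 pairs. The means were 7.22 ± 0.52 and 7.74 ± 0.39 (SD, n = 4 arrays each), a difference of 0.52 with a standard error of 0.29 (adjusted p = 0.872, limma). With the pair as a block, its limma p was 0.0356 before adjustment and 0.544 after. The arrays of clutch B stood higher than those of clutch A within ethanol, so that part of the spread within ethanol followed the clutch. Within cyclopamine the clutches overlapped.

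sfrp1.L, a Frizzled-related binder of Wnt, read 7.14, 7.43, 6.93 and 7.11 in ethanol and 6.68, 5.90, 7.12 and 7.26 after cyclopamine. Only the cyclopamine arrays of clutch A lay below the ethanol range. The difference was -0.41 with a standard error of 0.29, and -0.13 without cyclopamine array 2. sfrp5.L was at the floor on 1 ethanol and 2 cyclopamine arrays and differed by -0.33, which became -0.19 without ethanol array 3 and -0.06 with the floor at the 30th percentile.

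dkk2.L read 9.82, 9.79, 9.91 and 9.58 in ethanol and 9.54, 9.12, 9.59 and 9.82 after cyclopamine, a difference of -0.26 with a standard error of 0.16, and of -0.13 without cyclopamine array 2. sfrp2.S, another Frizzled-related protein, differed by 0.29 with a standard error of 0.30. wif1.S, which binds Wnt ligands directly, differed by 0.10. sfrpx.S differed by 0.00 with a 95% interval from -0.30 to 0.30. kremen1.S, a receptor for Dickkopf proteins, was above the floor on 6 arrays and differed by -0.0024.

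Among the ligands, wnt5a.S was higher after cyclopamine in 4 of 4 pairs, by 0.47, 0.47, 0.28 and 0.04, and the groups overlapped. The same sign in all 4 pairs was found in 18.9% of the 9765 genes and unnamed probe sets above the floor throughout. The difference was 0.31 with a standard error of 0.22, and 0.13 without ethanol array 2. Its limma p with the pair as a block was 0.0372 before adjustment and 0.544 after. wnt5a-a, by contrast, differed by -0.10 with a standard error of 0.17. wnt11b.L differed by -0.40 with a standard error of 0.21 and a pair-block limma p of 0.033 before adjustment and 0.544 after. That value rests on the floor: it was -1.36 with the floor at the 10th percentile and -0.03 with it at the 30th.

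wnt5b.S differed by -0.47 with a standard error of 0.29, by -0.78 without cyclopamine array 4, and by 0.04 with the floor at the 30th percentile. wnt3a.S differed by 0.12 with a 95% interval from -0.97 to 1.20, and wnt7b.L by -0.10 with an interval from -0.99 to 0.78. In both, 3 pairs were positive and pair 4 was negative, by -1.47 and -1.59. wnt11.S differed by 0.15, wnt4.L by -0.06 and wnt2b-b by 0.04.

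The cytoplasmic transducers differed by -0.07 to 0.16 and the nuclear factors by -0.15 to 0.17. Beta-catenin is the mediator of the canonical branch, and its entries differed by 0.14 for ctnnb1.L, -0.02 for ctnnb1.S and 0.13 for the probe set shared by both copies. Axin2 is a scaffold of the destruction complex and a common readout of canonical signaling. axin2.L read 9.22, 8.66, 9.61 and 9.02 in ethanol and 9.30, 8.98, 9.29 and 9.57 after cyclopamine, a difference of 0.16 with a 95% interval from -0.33 to 0.65. axin2.S differed by 0.11 with an interval from -0.34 to 0.57. apc.L was above the floor on 3 arrays, and axin1.L and gsk3b.L on 1 each.

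The Groucho-related gene tle5.L had the narrowest range over the arrays among the 40 members above the floor throughout, at 11.40, 11.34, 11.37 and 11.33 in ethanol and 11.43, 11.37, 11.44 and 11.42 after cyclopamine. Its difference of 0.06 had a 95% interval from -0.11 to 0.23, and tle5.S differed by 0.03. The nuclear partners of beta-catenin differed by -0.15 for the lef1 probe set, 0.13 for tcf7.S, 0.03 for tcf7l1.L, 0.02 for tcf7l1.S and -0.03 for tcf7l2.L, whose 2 probe sets differed by -0.15 and 0.09. The co-repressors tle2.L and tle4.S differed by -0.09 and 0.17.

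Canonical and planar polarity members were set side by side. The canonical list of ligands, co-receptors, destruction complex, beta-catenin and nuclear partners had 12 of 19 entries above the floor on all arrays. The planar polarity list of wnt5a, wnt5b, wnt11, fzd3, fzd7, ror2, vangl1, vangl2, dvl2 and dvl3 had 10 of 12. The list took wnt11 by its exact symbol, so that wnt11b.L, above the floor on 4 arrays, was in neither list. The same holds for wnt7b.L, above it on all arrays, and for the wnt2b, wnt4 and wnt6 entries. wnt11b.L differed by -0.40 and wnt7b.L by -0.10, and the counts and medians of the lists leave them out. After cyclopamine, the median difference was 0.11 over 17 canonical entries tested, 13 of them positive, and 0.05 over 11 planar polarity entries, 7 of them positive. No entry of either list had an unadjusted limma p under 0.05 without a block, wnt5a.S of the planar polarity list had one with the pair as a block, and the difference between the lists was not tested. By pair, the median of the canonical list was 0.08, 0.08, -0.22 and 0.35, and that of the planar polarity list was 0.13, -0.15, -0.09 and 0.36. In both lists pair 4 was the highest and the signs of the pairs were mixed.

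ror2.L, the receptor through which Wnt5a acts in limb mesenchyme, read 8.74, 8.13, 8.78 and 8.56 in ethanol and 8.62, 8.01, 8.76 and 9.18 after cyclopamine. The difference was 0.10 with a 95% interval from -0.49 to 0.68, and 3 of 4 pairs were negative. vangl2.S, a membrane protein of the polarity core, read 8.93, 9.17, 9.24 and 9.23 in ethanol and 9.08, 8.84, 9.14 and 9.02 after cyclopamine, a difference of -0.12 with an interval from -0.38 to 0.13. vangl1.L differed by 0.04 with an interval from -0.93 to 1.00. The Dishevelled genes dvl2.L and dvl3.L, which serve both branches, differed by 0.05 and 0.12, and fzd3.L by -0.01. The 3 probe sets of dvl2.L differed by 0.16, -0.07 and 0.05.

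Pathway genes outside the membership, and in the last list some members too, were read from lists chosen with earlier results of these data known. Of 19 further canonical genes tested, csnk1a1.S, a casein kinase of the destruction complex, was higher by 0.29 with a standard error of 0.09 (adjusted p = 0.63, limma). porcn.L, the enzyme that attaches the lipid to Wnt ligands, was lower in 4 of 4 pairs, with a mean difference of -0.47 and a standard error of 0.18 (adjusted p = 0.732, limma). These 2 of 19 genes had an unadjusted p under 0.05 in limma, beside 6.28% of all tested, and neither passed after adjustment. Of 15 further planar polarity and non-canonical genes tested, 10 were positive and 5 negative, with a median of 0.07, a range from -0.15 to 0.39 and no adjusted p under 0.732 in limma. prickle1.L and prickle1.S, of the polarity core and chosen after their values were seen, differed by 0.30 and 0.39, positive in 4 of 4 pairs. Of the 9765 genes and unnamed probe sets above the floor throughout, 18.9% had the same sign in all 4 pairs. The list of 10 genes widely taken as induced by canonical signaling includes members given above: axin2.L, axin2.S, tcf7.S, dkk1.S and the lef1 probe set. Of the 10, none had an unadjusted limma p under 0.05 without a block, and dkk1.S alone had one with the pair as a block. In this list 5 were positive and 5 negative, and the median was -0.02. Below 0 stood myc.S at -0.29, myc.L at -0.26, the cyclin D1 genes ccnd1.L at -0.27 and ccnd1.S at -0.24, and the lef1 probe set at -0.15. Above 0 stood axin2.L, axin2.S, tcf7.S, znrf3.S at 0.13 and dkk1.S at 0.52.

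Which arrays were high or low followed a shared pattern in many members. Of the 40 members above the floor throughout, 30 had cyclopamine array 2 as the lowest of its group, which is 75% beside 33.6% of all 9765 genes and unnamed probe sets. Cyclopamine array 4 was the highest of its group in 25, or 62.5% beside 33.2%. In ethanol, array 2 was the lowest in 18, or 45% beside 29.6%, and array 3 the highest in 19, or 47.5% beside 27.1%. Pair 4 gave the most positive of the 4 differences in 21 members, or 52.5% beside 34.6%. The median deviation from the group mean over the members was -0.30 on cyclopamine array 2 and 0.26 on cyclopamine array 4.

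The means of the limb mesenchyme, cartilage and endothelium markers moved with these arrays. Each mean was lowest on array 2 of both groups and highest on ethanol array 3 and cyclopamine array 4. Single markers did not all follow the means. Within cyclopamine, hoxd13.S, meis1.S, msx1.L and msx2.L were highest on array 1, msx1.S on array 3 and meis2.L on array 2. The other mesenchyme markers were highest on cyclopamine array 4. On the low side, meis1.S was lowest on cyclopamine array 3 and meis2.L on cyclopamine array 1. In ethanol, hoxa11.S, lhx9.L and tbx4.L were highest on array 1, and hoxa13.S, msx1.L and msx2.L on array 4. Lowest in ethanol were hoxd13.S and lhx9.L on array 4, and meis2.L and msx1.L on array 1. Of the endothelium markers, tek.S was highest in ethanol on array 2, at 7.10, and lowest on array 1 of both groups. In ethanol, pecam1.L and the cartilage marker col9a1.L were lowest on array 4, and the cartilage marker matn1.L was highest on array 2. The cartilage mean was almost as low on cyclopamine array 1, at 8.674 beside 8.671 on cyclopamine array 2. The mean of the 12 mesenchyme markers was 8.21, 7.95, 8.42 and 8.24 in ethanol and 8.40, 7.89, 8.26 and 8.51 after cyclopamine. The mean of the 4 cartilage markers was 8.92, 8.56, 9.03 and 8.62 in ethanol and 8.67, 8.67, 8.97 and 9.63 after cyclopamine, and that of the 4 endothelium markers 7.85, 7.75, 8.12 and 7.95 in ethanol and 7.86, 7.50, 7.94 and 8.36 after cyclopamine. These lists cannot be told apart by their lowest and highest arrays. The full order of the mesenchyme mean was shared by lrp5.L and tcf7l1.L, 2 of 40 members or 5% beside 0.952% of all 9765. That of the cartilage mean was shared by ctnnb1.S, dvl2.L, fzd2.S, fzd7.L, ror2.L and tle4.S, 6 members or 15% beside 3.22%, and that of the endothelium mean by the probe set of both ctnnb1 copies, 2.5% beside 3.04%. The order of the nerve and glia mean was shared by tcf7l1.S, 2.5% beside 0.85%. Those of the muscle and blood means were shared by 0 members, beside 0.184% and 0.174%. The cartilage order rests on the small gap between cyclopamine arrays 1 and 2. Of its markers, sox9.S was lower on array 2, col2a1.S and col9a1.L were lower on array 1, and matn1.L was at the floor on both. fzd2.S read 11.02, 10.35, 11.53 and 10.93 in ethanol and 11.08, 10.48, 11.30 and 11.90 after cyclopamine. The part of the mesenchymal, cartilage, endothelial, muscle, nerve or blood content of each pool in these values was not tested.

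The mean of the 8 epidermis markers ran the other way on cyclopamine arrays 2 and 4. It was 8.01, 8.51, 8.77 and 9.15 in ethanol and 8.16, 9.11, 8.81 and 8.06 after cyclopamine, and tp63.L, a defining marker, was above the floor on 3 arrays only. Single markers did not all follow this mean. krt19.L was highest of its group on cyclopamine array 4, at 10.68, and cdh1.S and krt19.S were lowest on cyclopamine array 1. dsp.L, dsp.S, epcam.L and epcam.S were lowest on cyclopamine array 4. In ethanol, krt19.L and krt19.S were highest on array 2. wnt3a.S and wnt7b.L had the arrays of both groups in the order of the epidermis mean, which 0.799% of all 9765 genes and unnamed probe sets did. vangl1.L read 5.94, 7.38, 6.90 and 7.77 in ethanol and 6.68, 7.76, 7.16 and 6.54 after cyclopamine, in that order but for ethanol arrays 2 and 3. It thus did not share the full order, and no background share is given for such a near match. The part of epidermal content in the values of these 3 genes was not tested.

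**Figure D3:**
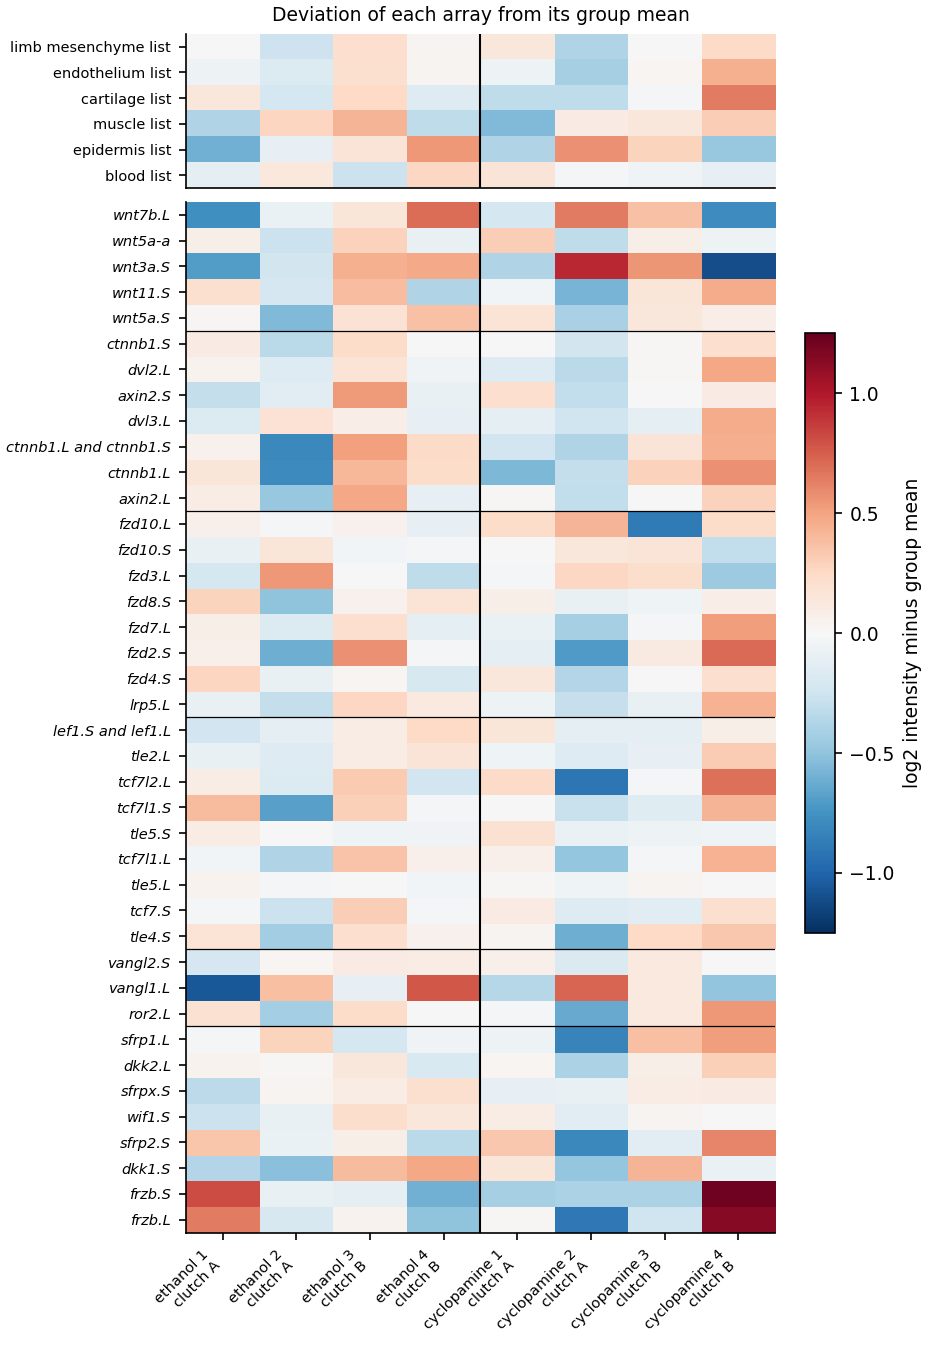
Deviation of each array (columns) from its group mean, in log2 intensity, for the means of 6 marker lists (upper block) and the 40 members above the floor on all arrays (lower block, grouped by role). Red is above and blue below the group mean. Cyclopamine array 2 is the lowest of its group in 30 members and cyclopamine array 4 the highest in 25, while wnt3a.S and wnt7b.L follow the epidermis list.

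**Figure D4:**
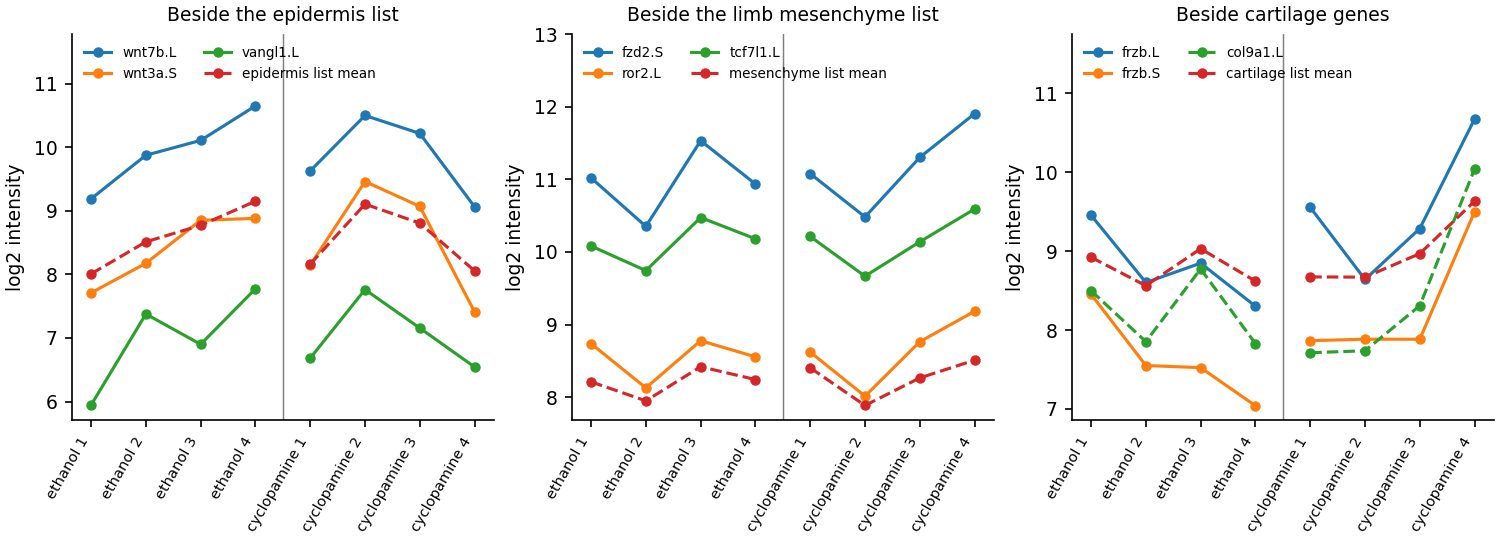
Log2 intensity on the 8 arrays of members with the epidermis list mean (left), the limb mesenchyme list mean (middle), and the cartilage list mean and col9a1.L (right). Solid lines are members and dashed lines are markers, and the lines only join the points of a gene. In the middle panel only tcf7l1.L shares the full array order of the mesenchyme mean, while fzd2.S and ror2.L share that of the cartilage mean. frzb.L and frzb.S do not share the full order of the cartilage mean. wnt3a.S and wnt7b.L have their lowest cyclopamine value on array 4, where the epidermis mean is 8.06, and frzb.L and frzb.S have their highest there, where the cartilage mean is 9.63.

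The second comparison asked how the clutches of tadpoles differed, with the treatment in the model and 4 arrays in each clutch. No member passed after adjustment, 0 of 55 beside 1.28% of all tested (limma, Benjamini-Hochberg), and the lowest adjusted p was 0.109. The signs were uneven: 46 of 55 members were higher in clutch B, beside 5999 of all 12380 tested. The median difference was 0.20, while the median of all tested was -0.008. Many members shared their high and low arrays, so that their signs are not independent. At an unadjusted p under 0.05, limma had 7 members higher in clutch B, or 12.7% beside 9.8% of all tested, and 0 lower, beside 12.1% of all tested. The clutches did not overlap, with B higher, in 3 members, or 5.45% beside 5.1%. The shares by unadjusted limma p and by lack of overlap lie near the background for the higher side. By unadjusted limma p, fewer members than the background share were on the lower side.

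Beta-catenin headed the clutch comparison. ctnnb1.L read 10.31 and 9.37 in ethanol and 9.75 and 10.01 after cyclopamine in clutch A, and 10.58, 10.39, 10.60 and 10.87 in the same order in clutch B. The clutches did not overlap, and the difference was 0.75 with a standard error of 0.21 (adjusted p = 0.109, limma). The probe set shared by both copies of ctnnb1 differed by 0.68 (standard error 0.19) without overlap, and ctnnb1.S by 0.23 (standard error 0.13) with overlap.

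dkk1.S was higher in clutch B by 0.61, fzd2.S by 0.69, lrp5.L by 0.37 and tcf7l1.L by 0.42, all with overlap. sfrpx.S was higher by 0.24 without overlap, at 9.81 ± 0.15 in clutch A and 10.05 ± 0.05 in clutch B (SD, n = 4 arrays each). The mean of the mesenchyme markers was lowest on array 2 of both groups, which are clutch A arrays, and the part of tissue content in the clutch values was not tested.

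**Figure D5:**
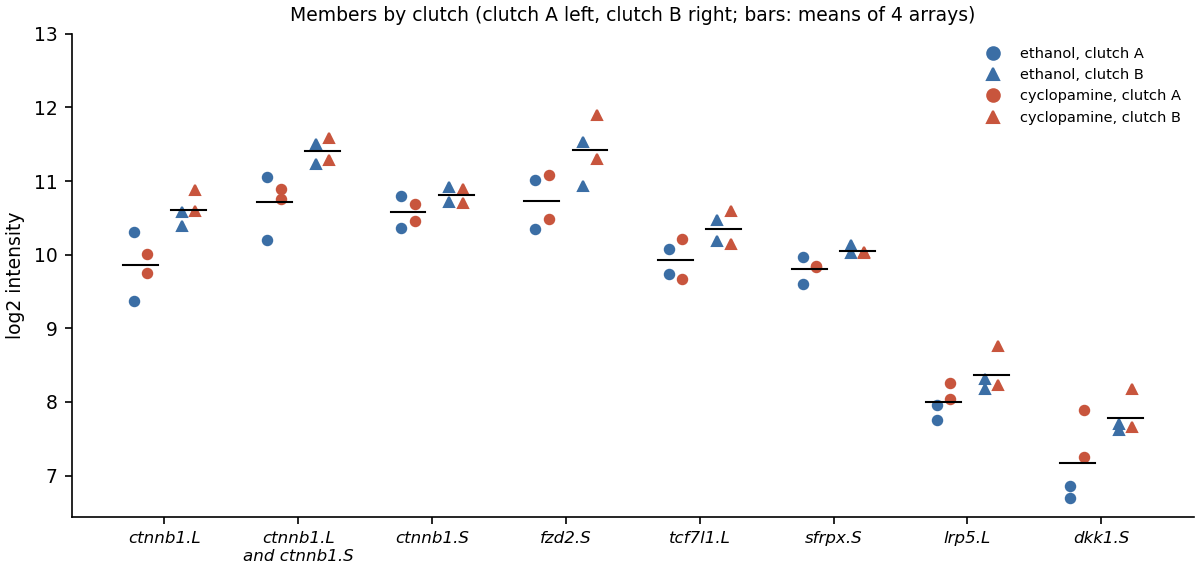
Log2 intensity of 8 entries by clutch, 4 arrays each. Circles are clutch A and triangles clutch B, blue is ethanol and red cyclopamine, and bars are means of 4 arrays. ctnnb1.L, the probe set shared by both ctnnb1 copies and sfrpx.S do not overlap between clutches, with clutch B higher, and the other 5 entries overlap.

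The response to cyclopamine was then compared between the clutches by an interaction term, with 2 arrays per treatment and clutch. No member passed after adjustment in limma. At an unadjusted p under 0.05 there was 1 member, or 1.82% beside 3.72% of all tested. This was sfrp1.L, whose difference after cyclopamine was -0.99 in clutch A and 0.17 in clutch B, and the difference between these was 1.16 with a standard error of 0.38. Its p from limma, fitted across all genes, was 0.0209 before adjustment and 0.999 after. The pairs of clutch A differed by -0.46 and -1.53 and those of clutch B by 0.19 and 0.15. wnt3a.S differed by 0.86 in clutch A and -0.63 in clutch B, and wnt7b.L by 0.53 and -0.74, with standard errors of the interaction of 0.89 and 0.70. Within clutch B, pair 3 was positive in both genes, at 0.22 and 0.11, and only pair 4 was negative, at -1.47 and -1.59.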

How the data were processed

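Total RNA of 8 pools of hindlimb buds was hybridized to Affymetrix arrays for Xenopus laevis. The authors deposited 1 linear intensity per probe set and array, with the summarization not given in the sources used here. On every array, the mean without the lowest and highest 2% was 500.07 to 500.08. 120 control probe sets were left out. Intensities were quantile-normalized, raised to a floor at the 20th percentile (43.7) and converted to log2. Probe sets of 1 symbol were averaged, .L and .S apart. Of the 57 member genes with 1 symbol, 55 were found in a RefSeq table of assembly Xenopus_laevis_v10.1, used for names only. No coordinates are given, because the array names no genome build, and no sequences were used here.

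Tests used limma 3.58.1 in R 4.3.3 over the 12380 genes and unnamed probe sets above the floor on at least 1 array, with Benjamini-Hochberg adjustment, a threshold of 0.05 and no block. The script was tested on simulated data. The number of arrays limits the precision, and p-values measure the spread between pools. By the methods of the study, the samples of a pair share clutch, day of exposure, number of limbs and extraction batch. The array numbers were taken as these pairs because the labels give the same clutch and group to both. Deviations from the group means correlated by 0.370, 0.565, 0.314 and -0.131 within pairs 1 to 4. Across numbers in clutch A, they correlated by 0.220 (ethanol 2, cyclopamine 1) and -0.211 (ethanol 1, cyclopamine 2). In clutch B, they correlated by 0.552 (ethanol 3, cyclopamine 4) and 0.305 (ethanol 4, cyclopamine 3). The values thus do not set the pairs of clutch B apart, and results by pair rest on the labels.

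Members and gene lists were chosen with earlier results of these data known. The rule named each ligand above the floor, the 6 members with the smallest p in each direction after cyclopamine, the planar polarity list and the 5 members with the smallest p between clutches. Other members are named to account for all of them, and differences are given for those above the floor on at least 4 arrays. Results for cyclopamine and, where they apply, for the clutches were recomputed with the pair or the clutch as a block, other scalings, floors and filters, the brightest probe set, the methods' t-test, leaving out each array, and each clutch alone. A result from the list of further planar polarity and non-canonical genes is not reported here.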

Additional observations from a re-analysis of the deposited data

Results flagged for a closer look

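The members picked by the naming rule were examined in groups of 4 arrays. The highest or lowest value was tested for a gap to the others (Dixon's test at the 95% level, 60 groups, of which chance flags about 1 in 20). The remaining members were not tested for such gaps. Among those tested, 10 values stood apart. On cyclopamine array 4, frzb.S read 9.50 beside 7.87 to 7.88, sfrp5.L 6.32 beside 5.45 to 5.56 and wnt5b.S 6.73 beside 5.45 to 5.48. For sfrp5.L and wnt5b.S, 2 of the 3 other cyclopamine arrays were at the floor, so that these gaps also rest in part on the floor. On cyclopamine array 3, fzd10.L read 5.46 beside 6.58 to 6.78. On cyclopamine array 2, wnt5a.S read 7.41 beside 7.90 to 7.98. In the other 5 cases the remaining 3 arrays were all at the floor, so that a single value above the floor was enough: wnt11b.L on cyclopamine array 1 (5.90), wnt6.S on ethanol array 2 (5.70) and cyclopamine array 2 (5.67), and wnt8a.L on ethanol array 4 (5.82) and cyclopamine array 1 (5.94).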

How the results depend on the processing

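No member passed after adjustment for cyclopamine or for clutch under any alternative run. The interaction was not recomputed with the other scalings, floors and filters or without single arrays. For cyclopamine, the count of members with an unadjusted p under 0.05, 0 without a block, was 3 with the pair as a block, 1 with the clutch as a block, 2 with the floor at the 10th percentile, 1 with it at the 30th, and 0 to 4 when each array was left out, with 4 without cyclopamine array 2. For the clutches, the count of 7 became 11 with the values as deposited and ranged from 3 to 10 without each array, with 3 after leaving out array 2 or 3 of ethanol or array 2 or 4 of cyclopamine. Ligands above the floor on all arrays numbered 8 in place of 5 with the floor at the 10th percentile, an alternative chosen after seeing the data, as were those for the counts at an unadjusted p. The median difference of the members ranged from -0.0026 to 0.087 without each array. The pair block changed no other call.

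Of 500 recomputed differences of named members after cyclopamine, 44 changed sign, all of them uncalled, and the cause was not tested. With the values as deposited, fzd3.L stood at 0.047 and wnt4.L at 0.014, and with array medians subtracted fzd3.L stood at 0.013. With the floor at the 10th percentile wnt2b-b stood at -0.15. With it at the 30th, vangl1.L stood at -0.045, wnt2b-b at -0.016 and wnt5b.S at 0.043. With the brightest probe set, fzd7.L stood at -0.16. In clutch A alone, the values were -0.14 for dvl2.L, -0.066 for dvl3.L, -0.13 for frzb.S, -0.069 for fzd7.L, -0.11 for ror2.L, -0.15 for wnt11.S, 0.24 for wnt4.L and 0.53 for wnt7b.L. In clutch B alone, they were 0.030 for fzd3.L, 0.17 for sfrp1.L, -0.49 for vangl1.L, -0.19 for wnt2b-b and -0.63 for wnt3a.S. Without each array, the ranges were -0.31 to 0.30 for vangl1.L, -0.036 to 0.16 for wnt2b-b, -0.20 to 0.49 for wnt3a.S, -0.12 to 0.16 for dvl2.L, -0.036 to 0.20 for dvl3.L, -0.12 to 0.17 for fzd3.L, -0.043 to 0.27 for fzd7.L, -0.083 to 0.31 for ror2.L, -0.23 to 0.20 for wnt4.L, -0.36 to 0.16 for wnt7b.L, -0.20 to 0.0043 for wnt5a-a and -0.0073 to 0.34 for wnt11.S. None of the 80 recomputed clutch differences of named members changed sign. Low signal limits wnt11b.L, wnt5b.S, wnt2b-b and sfrp5.L, whose values include arrays at the floor.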
